A study of Mus musculus with 6 samples.

Results

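Genes for mitochondrial ribosomal proteins were examined in whole blood of food-restricted mice. Members were all non-control array probes whose RefSeq accession maps to a symbol starting with Mrpl or Mrps and a number. This gave 110 probes for 76 genes, of 16535 genes named on the array, with 47 Mrpl genes (67 probes) and 29 Mrps genes (43 probes). A single probe was present for 49 genes, 2 probes for 20 and 3 probes for 7. Blood was taken from males of the inbred strain C57BL/6J aged 9 weeks. They received either a control diet or 50% food restriction (FR, chow CE-2) over 2 weeks, with 8 animals per diet. Both groups were bled from the right ventricle of the heart under anaesthesia, and neither carried any genetic change in the labels. RNA was pooled within each diet, so no value belongs to a single animal. Pool 2 combined animals 1 to 4, pool 3 combined animals 5 to 8, and pool 1 combined all 8. Each pool was hybridised as a control and FR pair on 2 arrays of opposite dye orientation, which gave 6 arrays. The tests rest on pools 2 and 3, which have no animal in common. Pool 1 lay on another slide and repeats the measurement for the same animals. The series searches for genes linked to early-life undernutrition by setting adult against fetal models, and the diets were compared to find transcripts of adult blood that respond to restriction.

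Mitochondria keep their own ribosomes, which translate the few messenger RNAs encoded by mitochondrial DNA, all of them for subunits of the respiratory chain and ATP synthase. All proteins of this ribosome are encoded in the nucleus, made in the cytosol and imported. Mrpl proteins form the large subunit, which joins amino acids into the peptide chain, and Mrps proteins form the small subunit, which binds and decodes the messenger. Some of them descend from bacterial ribosomal proteins and others have no counterpart in the bacterial ribosome. In blood, white cells and platelets contain mitochondria, reticulocytes still hold some, and mature red cells have none.

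Promoters of these genes are often GC-rich and without a TATA box. They are shown for members at both ends of the measured ratios, and because 4 motifs of factors known to act on nuclear genes for mitochondria can be read in them. The motifs searched, on both strands, were CCGGAAG for ETS factors such as GABP, GCGCATGCG for NRF1, AAGATGGCG for YY1 and GGGCGG for SP1. Each line gives the 100 bases before the RefSeq start site (GRCm38.p6), 5′ to 3′ on the gene's strand, with motifs on either strand in capitals. The 4 genes shown first are among the 6 with the lowest ratio of FR to control, and Mrpl57 and Mrpl30 were the 2 members that were higher in FR.
Mrpl43: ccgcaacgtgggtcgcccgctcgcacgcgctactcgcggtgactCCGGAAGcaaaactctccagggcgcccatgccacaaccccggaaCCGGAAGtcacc
Mrpl51: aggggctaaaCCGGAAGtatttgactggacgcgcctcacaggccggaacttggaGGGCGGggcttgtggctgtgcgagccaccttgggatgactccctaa
Mrpl36: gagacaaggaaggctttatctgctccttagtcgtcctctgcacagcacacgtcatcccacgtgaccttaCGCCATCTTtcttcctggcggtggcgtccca
Mrpl33: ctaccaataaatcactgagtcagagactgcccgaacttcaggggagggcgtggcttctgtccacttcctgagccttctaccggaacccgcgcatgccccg
Mrpl57: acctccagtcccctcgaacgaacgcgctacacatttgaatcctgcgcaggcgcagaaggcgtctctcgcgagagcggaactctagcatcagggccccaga
Mrpl30: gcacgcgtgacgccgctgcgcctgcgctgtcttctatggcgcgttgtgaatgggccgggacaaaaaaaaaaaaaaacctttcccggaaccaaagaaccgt
Mrpl43 (chr19:45006443-45006542, minus strand) holds 2 ETS motifs in this stretch. Mrpl51 (chr6:125192100-125192199, plus strand) holds an ETS and an SP1 motif, and Mrpl36 (chr13:73330909-73331008, plus strand) a YY1 motif on its other strand. None of the motifs is in the stretches of Mrpl33 (chr5:31613851-31613950, plus strand), Mrpl57 (chr14:57826139-57826238, plus strand) and Mrpl30 (chr1:37890377-37890476, plus strand). No letter shown belongs to more than 1 motif.

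Over the 300-base windows of the RefSeq table, which run from 250 bases before to 50 after the start, 67 member genes had 70 promoters. The ETS motif was in 35.7% of these and in 8.86% of all 32851 promoters of the table. The NRF1 motif was in 7 of the 70 promoters against 1.75%, the YY1 motif in 11.4% against 1.4% and the SP1 motif in 51.4% against 35.7%. The ETS motif was in 10 of 28 promoters of members that were lower in FR and in 10 of 27 of members that did not pass the test. The NRF1 motif was in 0 of 28 and 4 of 27, the YY1 motif in 3 and 2, and the SP1 motif in 15 and 13. Of the 2 promoters of members that were higher in FR, 1 held the ETS motif in this longer window. The SP1 motif was also in 1 of the 2, and the NRF1 and YY1 motifs in 0. These shares describe letters, not binding, and were not tested.

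FR blood had lower ratios for most of the measured mitochondrial ribosomal protein genes. Ratios are log2 values of FR over control in the same pool, normalized so that the median over all 11499 tested features was 0.01. A gene was tested if 1 of the diets was marked well above background on each of the 4 arrays for pools 2 and 3, which kept 60 members (38 Mrpl and 22 Mrps genes). With limma and an adjusted p under 0.05, 29 of 60 members (48.3%) were lower in FR, 2 were higher and 29 did not pass. Over all features, 24.5% were called lower and 3.74% higher. The members' median ratio was -0.32, with a range from -1.53 to 0.73. Ratios were below 0 for 53 of 60 members and for 5640 of 11499 features. In all 3 pools 45 members were below 0 and 6 above it, and pool 1 shares its animals with the others. That count was not taken over all features. All 29 members called lower were below 0 in each pool, and 26 of them on each of the 6 arrays. These genes were picked by their mean over pools 2 and 3, so this likeness of sign follows largely from the call. It is no separate support. With only 2 pools, limma took each variance wholly from its trend over signal, with infinite prior degrees of freedom, so the spread of the single gene does not enter its p-value. With 5.25 prior degrees of freedom in their place (the 3-pool prior, estimated from all 3 pools), the spread of each gene counts in part. Under it 18 members were lower and 1 was higher, while 15.2% of all features were lower and 1.49% higher.

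**Figure D1:**
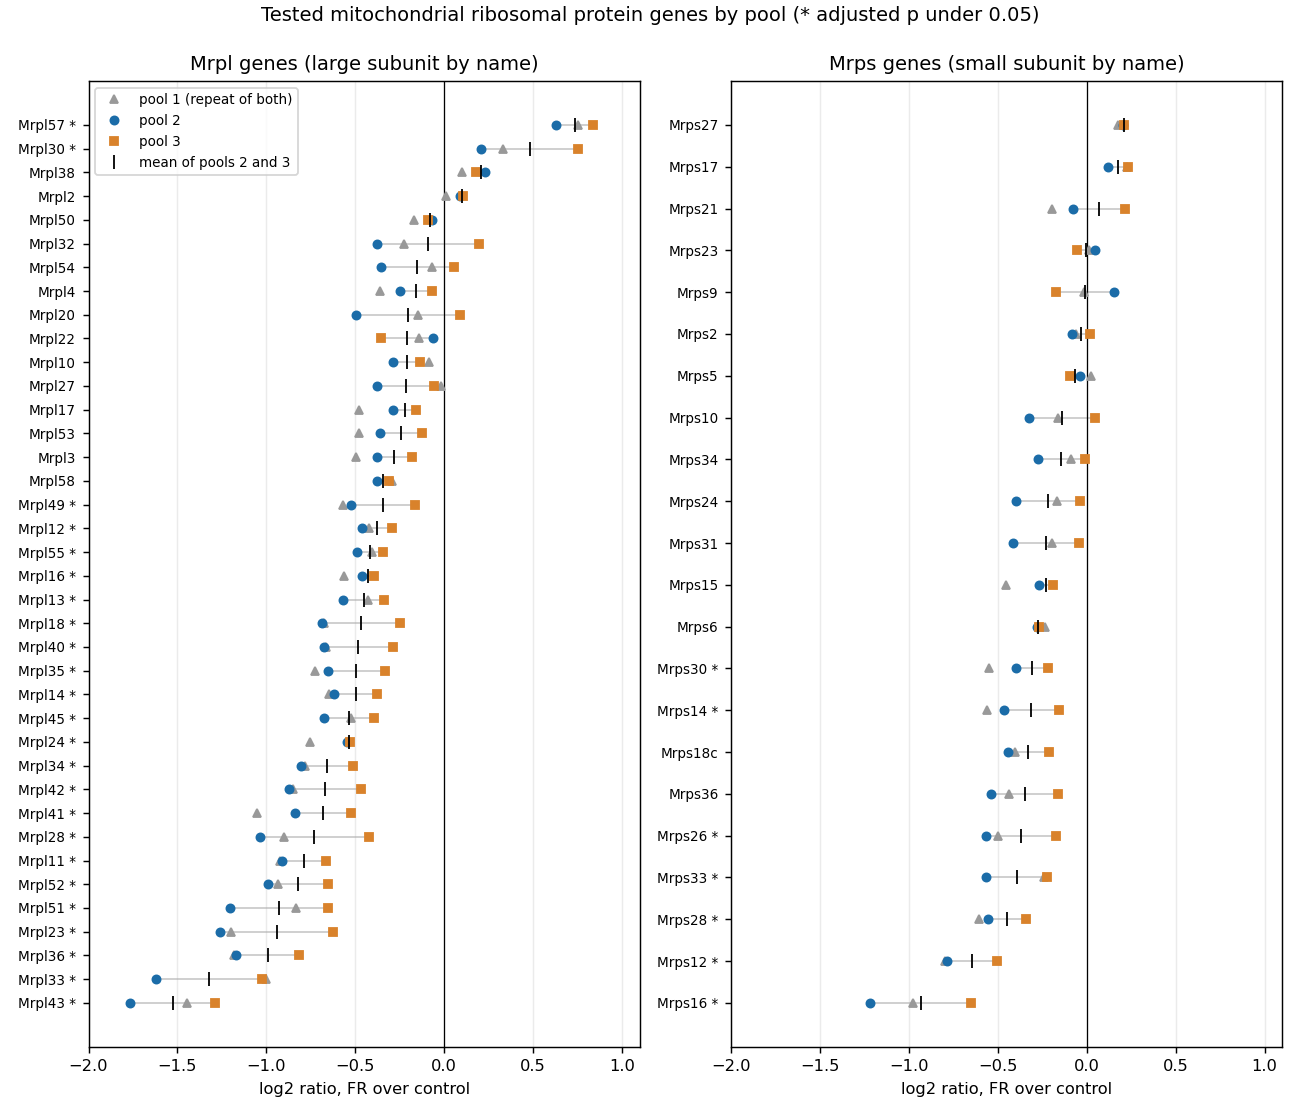
Log2 ratio of FR over control (x axis) for each of the 38 Mrpl genes (left) and 22 Mrps genes (right) tested, with pool 1 as grey triangles, pool 2 as blue circles, pool 3 as orange squares and the mean of pools 2 and 3 as a bar. An asterisk marks an adjusted p under 0.05. Ratios lie left of 0 for 53 of 60 genes, and blue circles lie left of orange squares for 54.

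The count of lower members depended on how dim spots were treated, because most members reached the test through control signal. On all 4 arrays of these pools, 71 of 110 member probes were marked well above background in control and 24 in FR. Over all 41174 probes the same shares were 31.8% for control and 19.5% for FR, against 64.5% and 21.8% for member probes. By this count over 4 arrays, member probes had the larger share in control and nearly the same share in FR. On single arrays member probes had the larger share in FR as well. It was 43.64% against 33.67% of all probes on the array of pool 2 with FR in Cy5. On that of pool 3 with FR in Cy5 it was 56.36% against 43.91%. By array, 75 to 104 member probes were above background in control and 24 to 83 in FR. FR was above background for fewer member probes than control on every array but that of pool 1 with FR in Cy5 (83 against 75). Over all probes FR had the larger share on the arrays of pools 1 and 3 with FR in Cy5. The array of pool 3 with FR in Cy3 had the lowest FR share, at 20.0% of all probes and 21.8% of member probes.

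Of the 60 tested members, 38 passed through control alone, 22 were above background on all 4 arrays in both diets and none through FR alone. A gene that passed through control alone was kept because control was high, so its count lends no support and the groups are given apart. Among the 38, 23 were lower and none higher, with a median of -0.38, and 35.4% of the 4323 features with the same marks were lower. Among the 22 measured in both diets, 6 were lower (27.3%) and 2 higher, with a median of -0.21, against 18.3% lower and a median of 0.06 for 7048 features. Refitting on features above background in both diets gave 7 lower and 2 higher of 22, where 18.6% of features were lower and 6.18% higher. With no filter, 33 of 76 genes were lower and 2 higher, where 9.99% of 33269 features were lower and 1.66% higher.

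**Figure D2:**
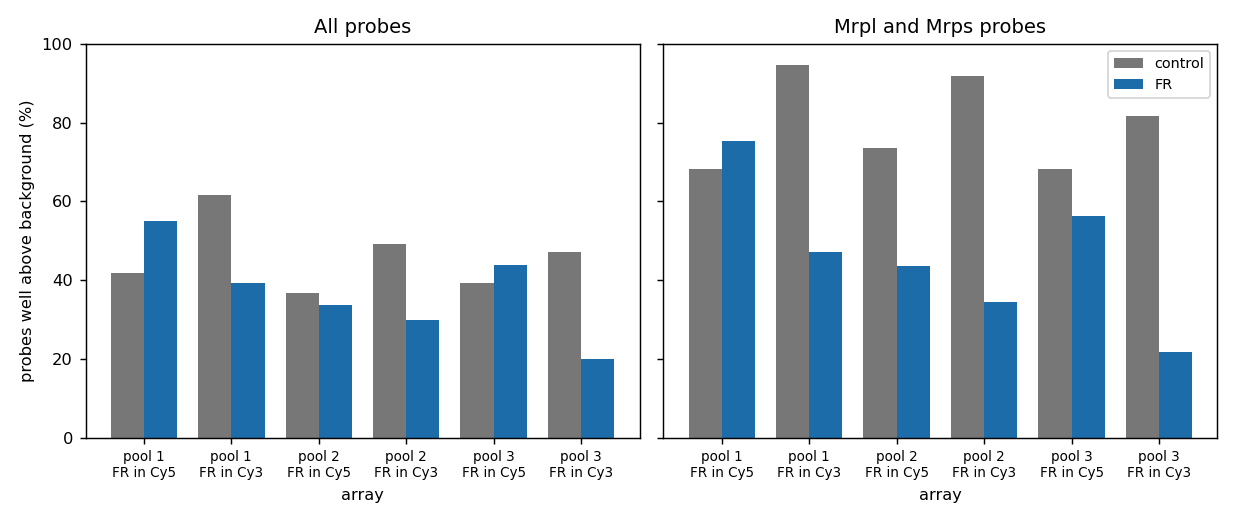
Share of spots well above background (y axis, %) in control (grey) and FR (blue) on each of the 6 arrays (x axis), for all 41174 probes (left) and the 110 Mrpl and Mrps probes (right). Member probes were above background in 75 to 104 of 110 cases in control and in 24 to 83 in FR, and Cy5 gave the higher FR share in each pool.

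The large subunit showed the larger differences by name. Among Mrpl genes, 22 of 38 were lower (57.9%) and 2 higher, with a median of -0.42. Among Mrps genes, 7 of 22 were lower (31.8%) and none higher, with a median of -0.23. The Mrpl median was below the Mrps median in each pool, at -0.51 against -0.22 in pool 1, -0.51 against -0.36 in pool 2 and -0.32 against -0.16 in pool 3. The difference of medians was -0.19, and an exact two-sided sign-flip permutation test over pools 2 and 3 gave p = 0.5, the smallest that 2 pools allow. The difference between the subunits is therefore a description. It narrowed to -0.07 among the 22 genes measured in both diets, where 4 of 13 Mrpl genes and 2 of 9 Mrps genes were lower. With the 3-pool prior, 16 Mrpl genes were lower and 1 higher, and 2 of 22 Mrps genes were lower, a smaller share than the 15.2% of all features. Control was above background on all 4 arrays for 65.7% of Mrpl and 62.8% of Mrps probes, and FR for 19.4% and 25.6%. Among tested genes, the standing probe had no FR spot above background for 10 of 38 Mrpl and 2 of 22 Mrps genes. Of genes that passed through control alone, 18 of 25 Mrpl and 5 of 13 Mrps genes were lower, against 35.4% of such features. That group was kept because control was high, and it holds most of the lower Mrpl genes. Mrps18a and Mrps30 lie in the large subunit despite their names, and Mrps36 is now placed in the oxoglutarate dehydrogenase complex. Of these, Mrps30 was lower at -0.31, Mrps36 did not pass at -0.35 and Mrps18a was not tested.

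**Figure D3:**
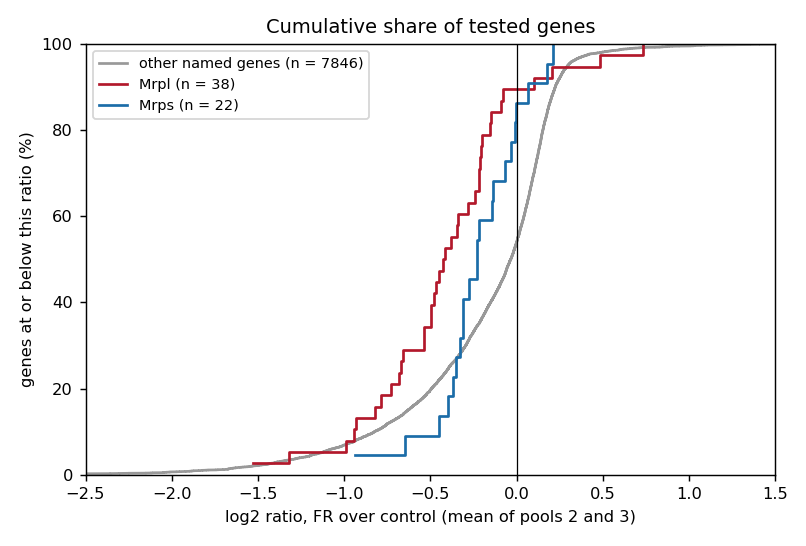
Cumulative share of tested genes (y axis, %) at or below each log2 ratio of FR over control (x axis, mean of pools 2 and 3) for 38 Mrpl genes (red), 22 Mrps genes (blue) and the other named genes (grey). The red curve has its median at -0.42 and the blue one at -0.23. Both cross 0 above the grey curve, and the lowest Mrps gene lies at -0.94 against -1.53 for Mrpl.

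Mrpl43, a large subunit protein with no bacterial counterpart, had the lowest ratio. Its log2 signals were 8.40, 9.10 and 8.45 in control pools 1, 2 and 3, and 6.96, 7.34 and 7.16 in FR. All FR values lay below all control values. Its ratio was -1.53 ± 0.34 (SD, n = 2 pools), with an adjusted p of 1.26e-20 in limma and 0.00451 with the 3-pool prior. It was above background in FR on 3 of the 4 arrays. A dimmer probe of Mrpl43 was lower as well, at -0.92.

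Mrpl33, a small protein of bacterial origin, was second. Its log2 signals were 9.44, 9.99 and 9.19 in control and 8.44, 8.37 and 8.17 in FR, again without overlap. The ratio was -1.32 ± 0.42 (SD, n = 2 pools), with adjusted p of 3.1e-17 and, with the 3-pool prior, 0.00741. Both diets were above background on all 4 arrays. The difference was larger in pool 2 (-1.62) than in pool 3 (-1.02).

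Among the other large subunit proteins of bacterial origin, Mrpl36, Mrpl23, Mrpl11 and Mrpl28 followed. Mrpl36 had control signals of 7.39, 7.88 and 7.28 and FR signals of 6.21, 6.71 and 6.47 on the log2 scale. No FR spot of the 4 arrays was above background, so its ratio of -0.99 ± 0.25 (limma adjusted p = 3.28e-11) rests on dim FR signal. The 1.99-fold difference it stands for is the measured one and no lower limit. It belongs to the mean of pools 2 and 3, and pool 3 alone was at -0.81. Mrpl23, which lines the exit of the peptide tunnel, had control signals of 7.79, 8.31 and 7.69 and FR signals of 6.59, 7.05 and 7.07. Control exceeded FR throughout, and the ratio was -0.94 ± 0.45 (limma adjusted p = 1.99e-08). Mrpl11 lies at the base of the stalk that recruits translation factors, and its ratios were -0.92, -0.91 and -0.66 in pools 1, 2 and 3 (adjusted p = 2.56e-07). FR was above background on 1 array of 4 for this gene. Mrpl28 was at -0.73 ± 0.44, with -0.90 in pool 1, -1.04 in pool 2 and -0.42 in pool 3 (adjusted p = 1.1e-05). The other stalk proteins were at -0.38 for Mrpl12, which was lower, and -0.21 for Mrpl10, which did not pass. At the exit of the tunnel, Mrpl24 (-0.54) and Mrpl45 (-0.54), the protein that ties the ribosome to the inner membrane, were lower. Mrpl17 (-0.22) and Mrpl22 (-0.21) did not pass.

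Counting all large subunit genes with a bacterial homologue, 14 of 24 were lower and 1 was higher, with a median of -0.42. Over all features 24.5% were lower and 3.74% higher. Only 8 of the 24 were above background in both diets on all 4 arrays. Besides those named, Mrpl34 (-0.66), Mrpl14 (-0.50), Mrpl35 (-0.49), Mrpl18 (-0.47), Mrpl13 (-0.45), Mrpl16 (-0.43) and Mrpl55 (-0.42) were lower. The 9 that did not pass ran from -0.28 for Mrpl3 to 0.10 for Mrpl2, a protein near the catalytic centre. Mrpl2 was at 0.01, 0.09 and 0.11 in pools 1, 2 and 3 (adjusted p = 0.703).

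Large subunit genes without a counterpart in the bacterial ribosome gave nearly the same median, -0.41, with 8 of 14 lower and 1 higher. Again 24.5% of all features were lower, and 5 of the 14 were above background in both diets on all 4 arrays. Mrpl51 had control signals of 7.87, 8.46 and 8.05 and FR signals of 7.04, 7.26 and 7.40 on the log2 scale, and its ratio was -0.93 ± 0.39 (limma adjusted p = 4.82e-08). Mrpl52 was at 8.61, 8.81 and 8.45 in control and 7.67, 7.82 and 7.79 in FR, with a ratio of -0.82 ± 0.24 (adjusted p = 1.06e-06). Neither gene's groups overlapped, and both were above background in both diets on all 4 arrays. Mrpl41 was at -1.05, -0.84 and -0.52 in pools 1, 2 and 3, and no FR spot of pools 2 and 3 was above background. Its mean of -0.68 ± 0.22 (adjusted p = 1.83e-06), a measured 1.60-fold difference, thus rests on dim FR signal. The difference was smaller in pool 3 alone. Mrpl42 (-0.67), Mrpl40 (-0.48) and Mrpl49 (-0.34) were lower too. Mrpl58, a peptidyl-tRNA hydrolase that releases stalled chains, did not pass at -0.34, nor did Mrpl53 (-0.24), Mrpl54 (-0.15), Mrpl50 (-0.08) and Mrpl38 (0.21), which sits in the central protuberance. Mrpl38 was above 0 in each pool, at 0.10, 0.23 and 0.18 (adjusted p = 0.365). A second, dimmer probe of Mrpl38 that the filter did not keep was below 0 in each pool, at -0.11, -0.15 and -0.15.

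In all, for 12 tested members (10 Mrpl and 2 Mrps genes) the probe that stands for the gene was not above background in FR on any of the 4 arrays. Another probe was above it in FR on 2 arrays for Mrpl40, where it was lower too at -0.44, and on 1 for Mrpl49. For the other 10 genes, mean folds of control over FR ran from 1.07 (Mrpl22) to 1.99 (Mrpl36), with dim FR signals raised to a floor. These folds are not lower limits, and for Mrpl3, Mrpl36, Mrpl41 and Mrps31 the floor changed nothing. Of the 10, Mrpl3, Mrpl22, Mrps15 and Mrps31 did not pass the test, so their folds establish no difference. A second kept probe of Mrpl3 was called lower at -0.68 (adjusted p = 7.55e-09 over probes).

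Mrpl57 and Mrpl30 went the other way. Mrpl57, a large subunit protein without a bacterial counterpart, had log2 signals of 9.31, 9.83 and 9.73 in control and 10.06, 10.46 and 10.57 in FR. FR exceeded every control value. Its ratio was 0.73 ± 0.15 (SD, n = 2 pools), with adjusted p of 3.78e-06 and, with the 3-pool prior, 0.0187. A second probe of Mrpl57, not above background, was at 0.02. Mrpl30, of bacterial origin, had log2 signals of 7.73, 8.28 and 7.88 in control and 8.06, 8.49 and 8.63 in FR. Here the groups overlapped, since control pool 2 was above FR pool 1. The ratio of 0.48 ± 0.39 came from 0.21 in pool 2 and 0.75 in pool 3, and its limma adjusted p of 0.00791 rose to 0.133 with the 3-pool prior.

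In the small subunit, Mrps16 and Mrps12 had the lowest ratios. Mrps16, of bacterial origin, had log2 signals of 8.51, 8.91 and 8.59 in control and 7.54, 7.69 and 7.93 in FR. All control values lay above all FR values, and both diets were above background on all 4 arrays. The ratio was -0.94 ± 0.40 (SD, n = 2 pools), with adjusted p of 1.69e-08 and, with the 3-pool prior, 0.0195. Mrps12, a protein of the decoding centre, was at 7.08, 7.48 and 6.98 in control and 6.28, 6.69 and 6.47 in FR, with a ratio of -0.65 ± 0.20. These were the 2 Mrps genes still lower with the 3-pool prior. Mrps28 (-0.45), Mrps33 (-0.40), Mrps26 (-0.37), Mrps14 (-0.31) and Mrps30 (-0.31) were lower without that prior only.

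By origin, 4 of 13 small subunit genes with a bacterial homologue were lower (median -0.22), and 2 of 6 without (median -0.19), shares near the 24.5% of all features. No Mrps gene was called higher. Among those with the highest ratios, Mrps27, a pentatricopeptide repeat protein, was at 0.21, Mrps17 at 0.18, Mrps21 at 0.07, Mrps23 at -0.01, Mrps9 at -0.01 and Mrps2 at -0.03, and none passed (adjusted p from 0.387 to 0.979). Mrps27 was above 0 in pools 1, 2 and 3, at 0.18, 0.20 and 0.21, as was Mrps17, at 0.22, 0.12 and 0.23. Mrps21 changed sign between pools, at -0.20, -0.08 and 0.21. Mrps9 did so too, at -0.02, 0.15 and -0.18, as did Mrps23, at 0.01, 0.04 and -0.06, and Mrps2, at -0.06, -0.08 and 0.01.

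Of the 9 genes with more than 1 kept probe, Mrps17 alone had probes of opposite sign. The brighter probe was at 0.18 and did not pass, and the other was at -0.72 ± 0.21 and was called lower. The direction of Mrps17 is thus unsettled. The brighter probe of Mrps33 was lower at -0.40 and the other did not pass at -0.04. Probes of Mrpl18, Mrpl43 and Mrps26 were each called lower, and no gene had probes called in opposite directions.

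The 16 genes that were not tested had signal near background. Without the filter, Mrpl39 (-0.38), Mrps18a (-0.36), Mrpl21 (-0.32) and Mrpl46 (-0.24) were lower, each without an FR spot above background on the 4 arrays. The other 12 did not pass, with ratios from -0.24 for Mrps22 to 0.10 for Mrpl37. These are Mrpl1, Mrpl9, Mrpl15, Mrpl19, Mrpl37 and Mrpl47, and Mrps7, Mrps11, Mrps18b, Mrps22, Mrps25 and Mrps35.

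Pool 2 had lower ratios than pool 3 for 54 of 60 members. The members' median was -0.45 in pool 2, -0.20 in pool 3 and -0.43 in pool 1. The median gap of pool 2 to pool 3 was -0.27 for members and -0.03 for all features, of which 6204 of 11499 were lower in pool 2. The 6 members not lower in pool 2 were Mrpl22, Mrpl38, Mrpl50, Mrps5, Mrps9 and Mrps23, of which none passed. Across the 60 genes, which share arrays and are not independent, the ratios of pools 2 and 3 correlated at Pearson's r = 0.887 and Spearman's rho = 0.833, and 52 had the same sign in both. Over all features r was 0.853 and 8748 had the same sign. With pools 1 and 2, which share animals, in place of pools 2 and 3, 46 of 61 members were lower, and 37.0% of features.

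**Figure D4:**
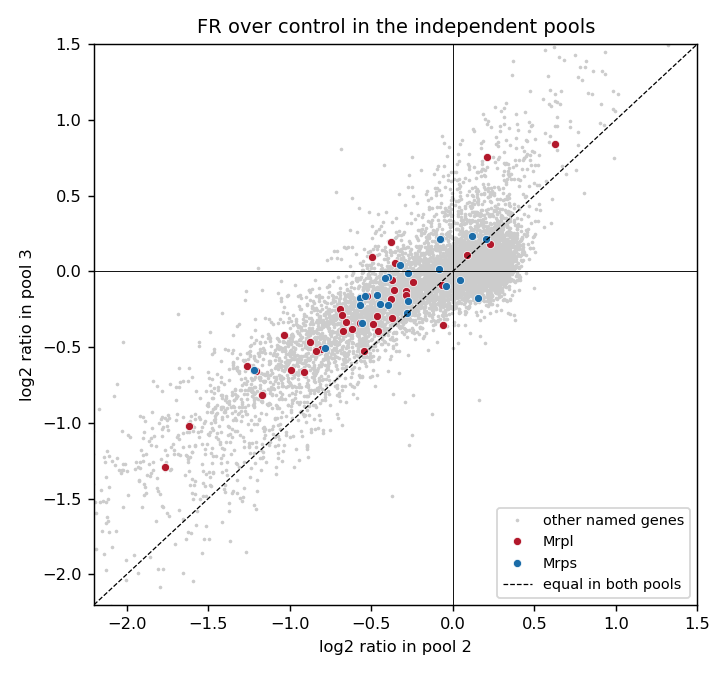
Log2 ratio of FR over control in pool 2 (x axis) and pool 3 (y axis) for Mrpl genes (red), Mrps genes (blue) and other named genes (grey, some beyond the axes). The dashed line marks equal ratios, and 54 of 60 members lie above it, with Pearson's r of 0.887 across the members.

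Some proteins of the same ribosome have other names. Of 5 tested, 4 were lower and none higher, with a median of -0.48, where 24.5% of all features were lower. They were Chchd1 (-0.99 ± 0.13) and the GTP-binding Dap3 (-0.94 ± 0.49) of the small subunit, Aurkaip1 (-0.48), also small subunit, and Gadd45gip1 (-0.42) of the large subunit. Ptcd3, a small subunit protein, was at 0.14 and did not pass. With the 3-pool prior Chchd1 and Dap3 were still lower, and these had FR above background on 1 and 3 of the 4 arrays. Among factors that act in mitochondrial translation, 3 of 5 tested genes were lower. These were Slirp (-0.44) and Lrpprc (-0.43), which together stabilise mitochondrial messengers, and the ribosome recycling factor Mrrf (-0.42). The elongation factor gene Tufm (-0.35) and the membrane insertase gene Oxa1l (0.04) did not pass. Slirp, Lrpprc and Mrrf did not pass with the 3-pool prior, and had FR above background on 0, 3 and 3 of the 4 arrays.

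Among genes for assembly of the ribosome, 1 of 9 tested was lower and none higher, with a median of 0.01. The RNA helicase gene Dhx30 was lower at -0.83 ± 0.51, with -1.19 in pool 2 and -0.47 in pool 3. The rRNA methyltransferase genes Mrm1 (0.33) and Nsun4 (0.21) had the highest ratios and did not pass. Among regulators of nuclear and mitochondrial genes of the organelle, 2 of 5 tested were lower, the nuclear receptor gene Esrra (-0.46) and Yy1 (-0.44). Over all features 24.5% were lower. FR was above background on 0 of the 4 arrays for Esrra and on 2 for Yy1, and Yy1 did not pass with the 3-pool prior. Polrmt, the mitochondrial RNA polymerase, was at 0.13 and Myc at 0.12, and neither passed.

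Cytosolic ribosomal protein genes, which serve translation of nuclear messengers, moved in both directions. Of 76 tested, 30 were lower (39.5%) and 11 higher (14.5%), against 24.5% and 3.74% of all features. The median was -0.21, and 72 of these genes were above background in both diets on all 4 arrays. Their lowest ratios were those of Rps18 (-2.11) and Rps27 (-1.93), and their highest those of Rpl41 (1.40) and Rplp1 (1.03). Their median was -0.37 in pool 2 and -0.05 in pool 3. The difference between both kinds of ribosome was not tested.

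Markers of several blood cell types were lower in FR as well, and those of others were not. B cell markers were lower for 7 of 9 tested genes (median -2.32), monocyte markers for 6 of 6 (median -1.28), platelet markers for 9 of 9 (median -1.09) and T cell markers for 4 of 9 (median -0.27). Neutrophil markers were lower for 3 of 6 and higher for 1 (median -0.32), and reticulocyte markers lower for 1 of 9 and higher for 3 (median 0.09). The shares over all features were 24.5% lower and 3.74% higher. The mean log2 signal of the B cell list ranged from 9.44 to 10.10 over control pools and from 7.17 to 7.76 over FR pools. The monocyte list ranged from 9.47 to 10.16 in control and 7.86 to 8.11 in FR, and the reticulocyte list from 12.90 to 13.24 and 13.01 to 13.27. For the tested members the same mean ranged from 7.46 to 7.70 in control and from 7.03 to 7.24 in FR. The monocyte list was lower in pool 2 (median -1.49) than in pool 3 (-1.06), as was the B cell list (-2.57 and -2.08), while the platelet list was not (-1.02 and -1.13). Medians in pools 2 and 3 were -0.594 and -0.122 for neutrophil, -0.316 and -0.227 for T cell and -0.135 and 0.278 for reticulocyte markers. None of 3 cardiac muscle and 2 hepatocyte markers tested passed. The part of these cell types in the members' ratios was not tested, and in pooled whole blood fewer cells of a type and less RNA per cell cannot be told apart.

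The direction of the members' median held under every normalization tried, and the counts did not stay fixed. Centring each array on its median in place of loess moved the median of all features to -0.18 and that of the members to -0.54, with 45 of 60 members and 35.6% of features lower. With FR and control taken as unpaired groups, 8 members were lower and 1 was higher, and 8.56% of features were lower.

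**Figure D5:**
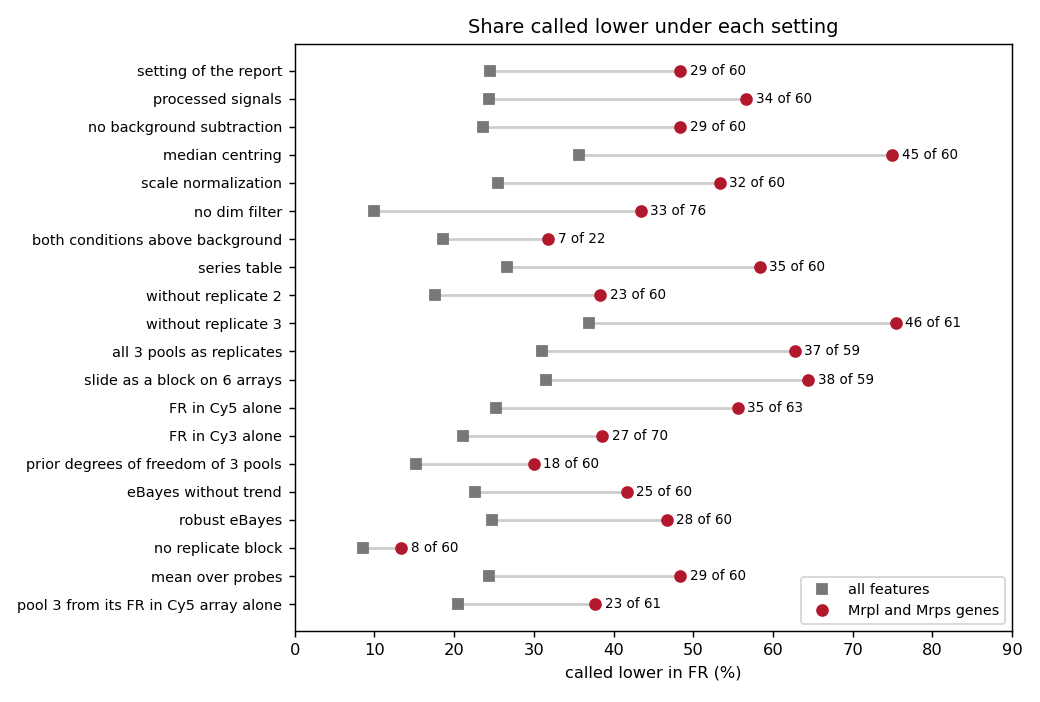
Share called lower in FR (x axis, %) for all features (grey squares) and for Mrpl and Mrps genes (red circles) under the setting of the report and each alternative (y axis), with the members' counts printed beside the circles. The red circle lies to the right of the grey square in each row, from 8 of 60 members without pairing to 46 of 61 with pools 1 and 2.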

How the data were processed

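Members and lists were chosen with earlier results of these data known. The deposited scanner files hold linear spot intensity values. The submitters' processing notes name Agilent Feature Extraction 11.0.1.1. The table the authors deposited holds log10 values, equal in every column to red over green processed signal within 0.001, not turned for swapped dyes, with column medians from -0.0277 to 0.0520.

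Here, median signals were background-corrected (normexp, offset 50), loess-normalized within arrays (control spots at weight 0), averaged per probe and turned to FR over control, and dye swaps were averaged. No spot was saturated and no member spot was an outlier. Symbols came from RefSeq (GRCm38.p6), matching accessions without versions for 23374 of 41174 probes. No probe matched the RefSeq genes Mrpl44 and Mrpl48. The brightest kept probe stood for a gene. Values of pools 2 and 3 were tested against 0 with limma 3.58.1 in R 4.3.3 (eBayes with trend, two-sided, Benjamini-Hochberg over 11499 features). The number of arrays limits precision. P-values rest on the spread between pools only, taken from features of like signal and not from the single gene. The median SD between pools 2 and 3 was 0.20 for members and 0.13 for all features. FR and control of a pool share an array, so the pool is a block by construction.

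Any tested member could be named. The 10 lowest and 10 highest received values by pool and an adjusted p, and other lists their 2 lowest and 2 highest genes where named. Folds for genes dim in FR use normalized log2 signals per channel (loess, Aquantile), with a dim signal raised to the lowest signal well above background. They carry no interval and are not lower limits. Alternatives changed the background correction, normalization, dim filter, pools, dyes, variance model, pairing and probe choice.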

Additional observations from a re-analysis of the deposited data

How the results depend on the processing

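The members' median stayed below 0 under every alternative, and members were called lower more often than features in each. These settings reuse the same arrays and probes, so their likeness is not independent support. Most of them also keep a filter that a gene can pass through control alone. In the main setting 38 of 60 members did so, and they hold 23 of the 29 called lower. With both diets above background the members' median was -0.21, against 0.06 for features. Median ratios were -1.03 with the processed signals and -1.18 with the deposited table, and -0.54 with median centring. Lower members numbered 45 with median centring, 7 of 22 with both diets above background, and 18 with the 3-pool prior. Without the pairing on an array (no replicate block), 8 were lower and 1 higher. Higher members numbered 1 with median centring and with the 3-pool prior. Leaving out a replicate, which brings in pool 1 and its shared animals, gave 23 to 46 lower members, 2 higher, medians from -0.44 to -0.32 and a difference between the Mrpl and Mrps medians from -0.30 to -0.22. With FR in Cy5 alone 3 were higher.

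That difference was -0.67 with processed signals, -0.78 with the deposited table, -0.10 without background subtraction, -0.12 with median centring and with no filter, -0.067 with both diets above background, -0.21 with all 3 pools, -0.22 with slide as a block, -0.25 with FR in Cy5 alone and -0.17 with the mean over probes. The causes of these shifts were not tested.

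Of 371 values of the 20 members at both ends, 347 kept their direction and side of the threshold, 6 fell short of it and 18 changed sign, all in genes that did not pass. Mrps9 was at 0.107 with processed signals, 0 without background subtraction, 0.104 with the deposited table, 0.066 without replicate 3 and 0.017 with FR in Cy3 alone. Mrps2 was at 0.031 with processed signals and 0.001 with FR in Cy5 alone. Mrpl2 was at -0.145 with median centring and -0.086 with FR in Cy3 alone. Mrps21 was at -0.145 with median centring, 0.009 and -0.137 without replicate 2 or 3, -0.020 with all 3 pools and -0.064 with slide as a block. Mrps23 was at -0.024 and 0.027 without replicate 2 or 3, 0.001 with slide as a block and 0.022 with FR in Cy3 alone. Mrps27 was at -0.033 with median centring and Mrps17 at -0.273 with the mean over probes. Pool 3 from its FR in Cy5 array alone, chosen after seeing the data, gave 23 of 61 members lower. Dim FR spots limit the ratios of 10 members to bounds.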
